A study of Danio rerio with 73 samples.

Results

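The series amplified promoter regions of 18 genes from bisulfite-treated gonad DNA in a multiplex assay. Besides the stretches read in most fish, 347 CpG cytosines were read in a minority of the gonads. They were chosen by depth alone: a CpG entered if it had at least 10 reads in 10 to 36 of the 73 fish, which 347 of the 25217 listed CpGs did. CpGs, where a guanine comes after the cytosine, are the usual sites of DNA methylation in vertebrates. The 324 CpGs with that depth in 37 or more fish are called the panel. Depth and the number of fish are therefore what chose the 347 CpGs and are only described, whereas methylation levels played no part in the choice.

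The fish were laboratory zebrafish of the AB strain, 90 days old, and the series asked whether 36 °C during the development of the gonads leaves marks in the mature testis and ovary, against 28 °C. Gonads at 36 °C were testes of 12 fish whose sample titles carry the prefix 128, testes of 8 fish with the prefix 204, and ovaries of 12 fish with the prefix 204. Gonads at 28 °C were testes of 13 fish with the prefix 128 and of 10 with the prefix 204, and ovaries of 9 fish with each prefix. The labels do not define the prefixes, and HT and LT in the labels were read as 36 °C and 28 °C. The labels do not say which fish shared a tank or family, so a p-value measures the spread between these fish. Each sample is a whole gonad, in which another mix of cells and another level per cell cannot be told apart.

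Methyl groups on CpGs are added by DNA methyltransferases and copied after DNA replication. In zebrafish, as in other vertebrates, most CpGs of the genome are methylated, while dense clusters of CpGs, often at promoters, usually are not. Germ cells carry their own patterns, and zebrafish sperm DNA is known to be more methylated than oocyte DNA. After bisulfite treatment a methylated cytosine is still sequenced as C, whereas an unmethylated one appears as T, so the methylation level is the percent of reads with C.

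Depth per fish was 711295 to 12565602 CpG calls, except for 1 ovary at 36 °C (prefix 204, fish 14) with 1404. The 347 CpGs took 0.366% of all calls and the panel 99.5%, and in single fish the 347 CpGs took from 0% to 2.54% of the calls, with a median of 0.228%. In 3 fish none of them reached 10 reads. No pair of libraries held identical counts. On a scale over 11 panel regions, with 0 at the mean of the 28 °C ovaries of prefix 128 and 100 at the mean of the 36 °C testes of the same prefix, the 29 ovaries that could be placed lay between −20.9 and 21.3. Of the 43 libraries labelled testis, 12 lay inside that range and the other 31 at 24.5 or above. The 12 were 8 of the 10 testes at 28 °C with the prefix 204, fish 20 and 22 of the 28 °C testes with the prefix 128, and fish 1 and 17 of the 36 °C testes with the prefix 204. The remaining testes at 28 °C with the prefix 204, fish 2 at 24.5 and fish 7 at 41.8, were the lowest of the 31. The next lowest lay at 67.1. Whether these 12 libraries carry a wrong tissue label cannot be settled from the files, and every testis mean and call that includes them rests on the label. Counts are therefore given below with and without these 12 libraries, an alternative chosen after seeing the data. These testes were picked because their panel levels resembled those of ovaries. Leaving them out can widen a difference between testis and ovary by construction and is no independent check.

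The CpGs read in few fish were mostly either highly methylated or unmethylated. Of the 347 CpGs, 171 (49.3%) had a mean level above 80% over the fish that read them, against 35 (10.8%) of the 324 panel CpGs. A mean level below 5% was found at 97 (28.0%) of the few-fish CpGs and at 198 (61.1%) of the panel CpGs. Between 20% and 80% lay 65 (18.7%) of the few-fish CpGs and 71 (21.9%) of the panel CpGs. The median level was 77.6% at the few-fish CpGs and 0.914% at the panel CpGs. The shares describe these 2 sets of places in the genome, which were amplified at very different depths, and they were not tested.

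**Figure D1:**
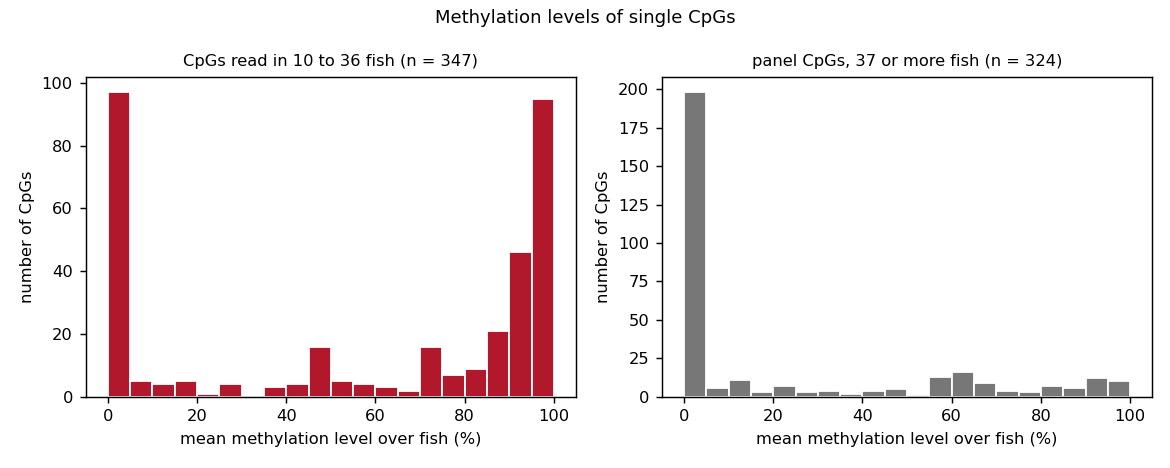
Number of CpGs (y axis) by mean methylation level over fish in percent (x axis) for the 347 CpGs read in 10 to 36 fish (left) and the 324 panel CpGs (right, another y scale). The few-fish CpGs pile up at both ends, with 97 below 5% and 141 above 90%, whereas 198 of the panel CpGs lie below 5%.

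Levels in single fish were more extreme than the means. The 347 CpGs gave 5350 levels of 1 CpG in 1 fish, of which 1121 (21%) were exactly 0% and 1364 (25.5%) exactly 100%. Only 10.8% of these levels lay between 20% and 80%, against 13.5% in the panel. Among fish with at least 10 reads at a CpG, the median depth was 56 reads per CpG and fish at the few-fish CpGs and 8901 in the panel. The median SD between fish was 8.03 percentage points at the few-fish CpGs and 1.35 in the panel. At 10 reads a level moves in steps of 10 percentage points, and PCR reads without molecular identifiers are not independent molecules, so levels of the few-fish CpGs are coarse. The part of depth in the wider spread was not tested. At the edges of the rule, the 75 CpGs read in exactly 10 fish had a median level of 50.1%, and the 109 read in 9 fish, just outside, 59.6%. The 11 CpGs read in 36 fish had a median level of 90.4%, and no CpG was read in exactly 37 fish.

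The few-fish CpGs were clustered in short stretches. Joining members up to 200 bp apart gave 72 regions on the GRCz10 genome build, of which 61 held at least 2 CpGs and together 336 of the 347 members. The median region held 4 CpGs and the largest 21, and regions with at least 2 CpGs had a median length of 116 bp and a maximum of 465 bp. Of the distances between neighbouring members on a chromosome, 275 were 200 bp or less (median 18 bp), 2 were longer but at most 500 bp, none was between that and 10 kb, and 45 were above 10 kb. All 72 regions were read on 1 strand, 34 on the plus and 38 on the minus strand, and no member had its partner on the other strand among the members. Regions lay on 24 of the 25 chromosomes and on 1 unplaced scaffold, with at most 6 on a chromosome (chromosome 23). No member was mitochondrial.

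All but 1 of the regions stood apart from the panel. The exception, chr22:20736356-20736681 with 8 members, ended 7 bp from a panel CpG, and 5 of its members lay within 200 bp of the panel. Apart from it, chr3:54362384-54362448 was nearest, at 9516 bp, and no other region lay within 10 kb of a panel CpG. Gene annotation of this build was not used here, so regions are given by position only.

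The regions were divided into 2 sets by whether the 8 testes at 36 °C with the prefix 204 read them. In the 8 testes at 36 °C with the prefix 204, 21 regions with 119 CpGs were read in at least 1 fish, and 50 regions with 220 CpGs in none, beside the region next to the panel. The 21 regions are called the first coverage set here and the 50 the second. Fish tended to read many regions of 1 set and few of the other: 27 fish read 5 or more of the first set and fewer than 11 of the second, 16 read 11 or more of the second and fewer than 5 of the first, 4 read both at those numbers and 26 neither. The 27 fish include the 8 testes that define the sets. The 20 fish with 11 or more regions of the second set stood apart, since no other fish read more than 3. Not every region of the second set was read mainly by these 20. At chr9:39370544-39370601 the fish with a level included 8 ovaries with the prefix 128, of which only fish 17 was among the 20. The sets are a description and were not tested. The median level of the regions was 79.6% in the first set and 81.4% in the second.

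The 8 testes at 36 °C with the prefix 204 defined the sets, so that they read no region of the second set follows from the definition. Each read 5 to 14 regions of the first set. In the other groups the sets were spread unevenly. All 9 ovaries at 28 °C with the prefix 128 read 5 to 21 regions of the first set, and 1 of them, fish 17, read 29 of the second as well. The second set was read by 5 of 12 testes at 36 °C with the prefix 128, 6 of 13 testes at 28 °C with the prefix 128, 3 of 10 testes at 28 °C with the prefix 204, 2 of 12 ovaries at 36 °C, and 3 of 9 ovaries at 28 °C with the prefix 204. Most testes that read the second set had the prefix 128, but the 8 testes at 36 °C with the prefix 204 could not read it by definition. Most ovaries that read it had the prefix 204, as did most ovaries of the series.

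**Figure D2:**
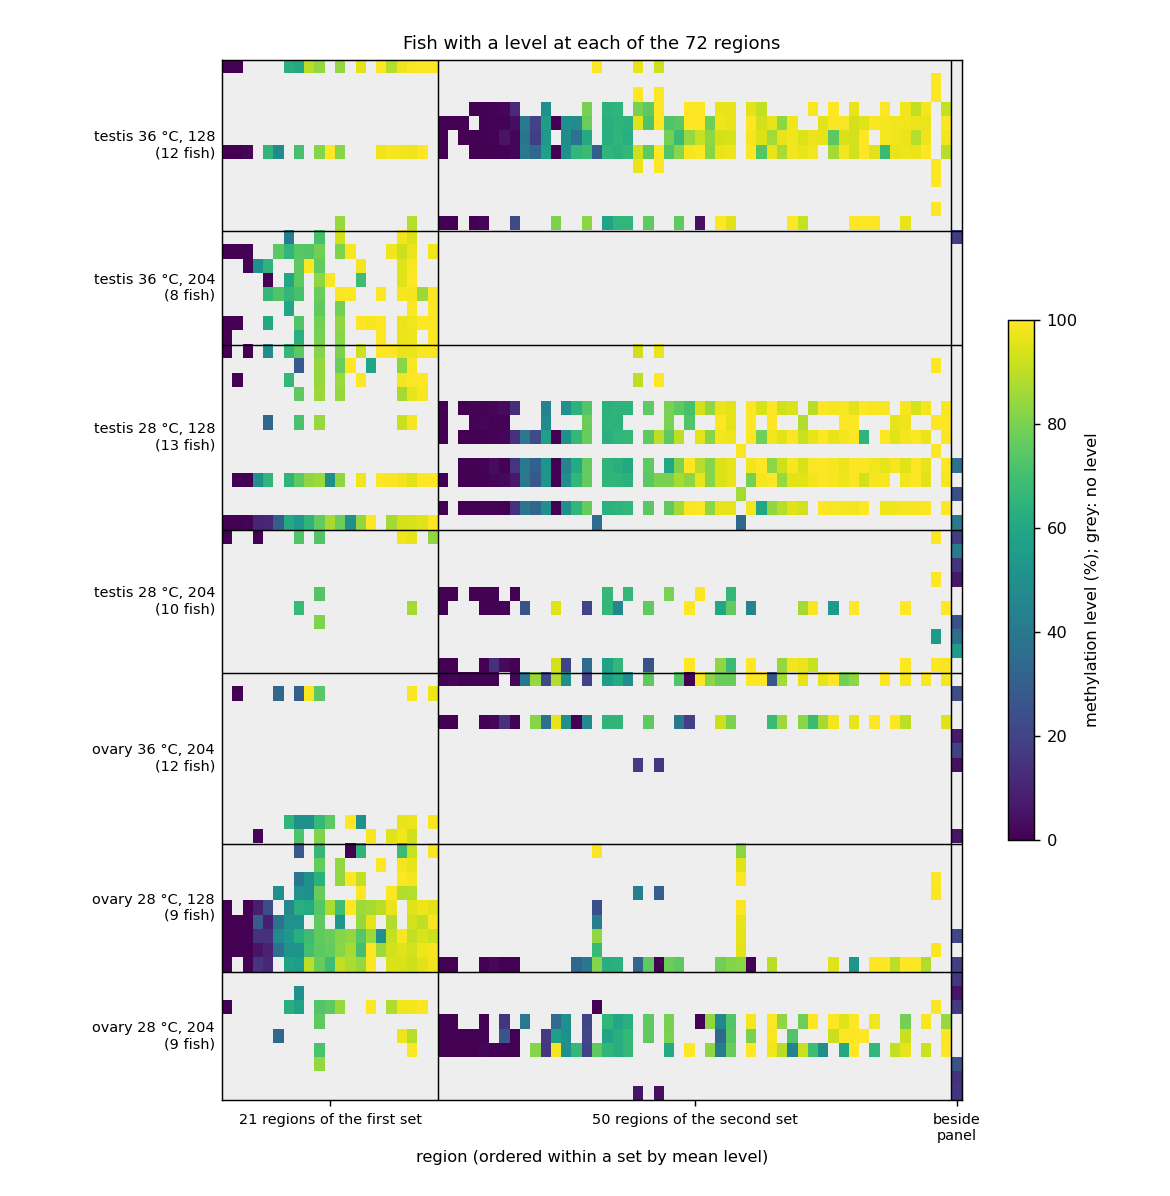
Each row is a fish, grouped by tissue, temperature and title prefix, and each column is 1 of the 72 regions, with the first coverage set at the left, the second in the middle and the region beside the panel at the right. Colour gives the methylation level in percent and grey means no level. The 8 testes at 36 °C with the prefix 204 define the second set by being grey there, and all 9 ovaries at 28 °C with the prefix 128 have levels at 5 to 21 regions of the first set.

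Levels were alike along many regions. Of the 61 regions with at least 2 CpGs, 21 had every CpG mean above 80%, 9 had every CpG mean below 20%, and 31 were mixed. The 9 low regions held a median of 8 member CpGs, and their mean distance from one member to the next had a median of 14 bp. The 21 high regions held a median of 3 CpGs with a median spacing of 23 bp, and the 31 mixed regions a median of 5 with 41.1 bp. These spacings count member CpGs only and were not tested.

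The regions with the most members were of every kind. The largest, chr1:416089-416229 with 21 CpGs, was almost unmethylated, at 0.145% ± 0.178 (SD, n = 11 fish). Likewise low were chr24:17001305-17001396 with 13 CpGs, at 0.204% ± 0.202 (n = 10), and chr14:31596477-31596558 with 8 CpGs, at 0.691% ± 0.493 (n = 20). High levels were found at chr2:11146386-11146562 with 14 CpGs, at 91.3% ± 5.65 (n = 14), chr12:11897946-11898096 with 9 CpGs, at 94.3% ± 4.84 (n = 14), and chr15:6854585-6854705 with 9 CpGs, at 95.7% ± 3.71 (n = 35). Mixed levels were found in 2 others: chr24:6980565-6980772 with 11 CpGs had 77.2% ± 5.47 (n = 36), and chr7:22060584-22061048 with 19 CpGs had 43.5% ± 27.6 (n = 10). The chromosome 14 region was tied at 8 CpGs with 5 more. Of these, chr19:4941024-4941166 had 0.362% ± 0.308 (n = 14), chr7:29815854-29815952 had 1.91% ± 3.15 (n = 17) and chr21:2290755-2290910 had 96.9% ± 3.29 (n = 13). The other 2, chr4:9915227-9915515 with 55.1% ± 25.2 (n = 19) and chr22:20736356-20736681 with 21.4% ± 13 (n = 24), are described with the comparisons.

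In 11 regions a CpG with a mean level below 10% stood beside others above 90%. In chr24:6980565-6980772 the CpG at 6980565 averaged 0.0247% (highest fish 0.493%), while 20 bp away the CpG at 6980585 averaged 90.4% and 6 of the 11 CpGs averaged above 90%. In chr23:29678618-29678981, 1 of 6 CpGs averaged 0% and the other 5 above 90%, and in chr10:28294203-28294404, 2 of 6 averaged below 10% and 4 above 90%. The 11 regions held 16 such low CpGs, and 15 of them did not exceed 10% in any fish that read them. A T in place of the reference C and an unmethylated C give the same bisulfite reads, and which of the 2 these positions hold was not tested.

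**Figure D3:**
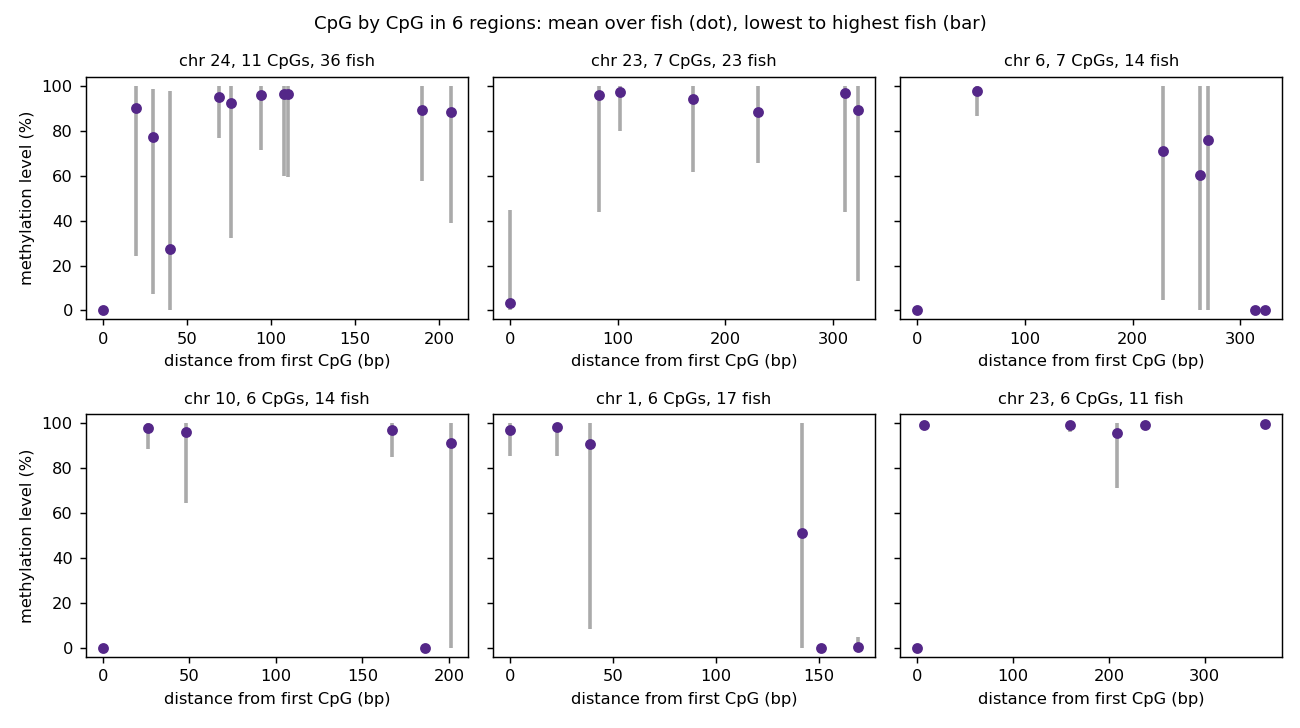
Methylation level in percent (y axis) of each CpG in 6 regions, by distance in bp from the region's first CpG (x axis), with the mean over fish (dots) and the lowest to highest fish (bars). In the chromosome 24 region the first CpG stays at or below 0.493% in every fish while 6 others average above 90%.

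Some CpGs differed between fish in steps. The CpG at chr24:6980605 was below 10% in 15 of 36 fish, above 90% in 1, and between 17% and 58.6% in the other 20. The 18 fish with the prefix 128 held 16 of these 20 middle levels, and the 18 fish with the prefix 204 held 13 of the 15 low ones. All 7 testes at 28 °C with the prefix 128 lay between 41.7% and 58.6%, and all 3 testes at 28 °C with the prefix 204 at or below 4.82%. This CpG was singled out after its values were seen. By a fixed criterion, at least 3 fish below 10% and at least 3 above 90%, 8 few-fish CpGs in 7 regions and 8 panel CpGs were split. Among them, chr1:32158702 had 6 fish below 10% and 6 above 90% of 17, and chr11:39968061 had 6 and 4 of 14. Also among them were chr22:20736356, with 6 and 9 of 31, and chr22:20736365, with 7 and 7 of 31, which are tested below. Whether a difference in DNA sequence between fish or a difference in methylation gives such steps was not tested.

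Testis and ovary at 28 °C could be compared at 7 few-fish regions and 48 few-fish CpGs, with at least 5 fish per side and labels permuted within the prefix. A region level is the mean over the CpGs that a fish read, at least 50% of those in the region. Fish of a comparison may thus average different CpGs of a region, here and below, and the part of this in the differences was not tested. Methylation was higher in testis at 1 of the 7 regions and at 5 of the 48 CpGs, and lower at none. Over everything tested, panel included, 50% of regions and 28.5% of CpGs passed the threshold of 0.05 after Benjamini-Hochberg adjustment. The shares of few-fish and panel sites that passed were not tested against each other. At an unadjusted p of 0.05 or below, 3 regions and 11 CpGs passed. The median difference, testis minus ovary, was 3.55 percentage points over the 7 few-fish regions and 3.46 over all 28 regions tested, and all 7 differences were positive. CpGs of a region come from the same amplified fragments and are not independent of each other.

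The region that passed was chr24:6980565-6980772. Levels in testis at 28 °C ran from 73.2% over a median of 82.9% to 85.0% in 10 fish, and in ovary at 28 °C from 64.1% over 75% to 84.1% in 13 fish. The groups overlap: 3 testes were low, fish 7 and 0 with the prefix 204 at 73.2% and 73.4% and fish 22 with the prefix 128 at 76.0%, and 1 ovary, fish 16 with the prefix 204, was high at 84.1%. The means were 80.8% ± 4.81 in testis and 74.1% ± 4.91 in ovary (SD, n = 10 and 13), and the difference stratified by prefix was 6.69 percentage points (SE 1.87, exact permutation test, two-sided, adjusted p = 0.00835). It was larger than the spread between fish, with 8 of 10 testes above the mean of the ovaries of their prefix. Within the prefix 128, testes averaged 82.9% (n = 7) and ovaries 73.3% (n = 9), whereas within the prefix 204 testes averaged 75.9% (n = 3) and ovaries also 75.9% (n = 4). Without the testes inside the ovary range, left out for their likeness to ovaries in the panel, the difference was 8.33 (exact permutation test, adjusted p = 0.00512). The region level includes the CpG of this region described above, where fish differed in steps. There, at 28 °C, all 7 testes with the prefix 128 had 41.7% to 58.6% and all 3 with the prefix 204 at most 4.82%. Of the ovaries, 2 of 9 with the prefix 128 and 2 of 4 with the prefix 204 were below 10%. Another ovary with the prefix 204 was above 90%. Neither its part in the region's differences nor a difference in DNA sequence at this CpG was tested.

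Of the other regions, chr22:20736356-20736681 came next, with 30% ± 14.8 in testis and 16.7% ± 5.97 in ovary (SD, n = 10 and 8) and a difference of 13 (SE 5.83, exact permutation test, adjusted p = 0.0625). It passed when any of 5 fish was left out: fish 20 of the testes with the prefix 128, fish 0, 3 and 5 of the testes with the prefix 204, and fish 16 of the ovaries with the prefix 204, with differences of 9.80 to 15.6 over all fish left out. Of the 10 testes with a level there, only fish 18 with the prefix 128 and fish 2 with the prefix 204 lay outside the ovary range of the panel. Without the rest, fewer than 5 testes remained and the region was not tested. At chr24:32502887-32502991 testes had 98.6% ± 1.98 and ovaries 95.1% ± 2.87 (SD, n = 5 each), with a difference of 3.55 (SE 1.56, exact permutation test, adjusted p = 0.0833). All of these fish had the prefix 128, and the 1 ovary with the prefix 204, at 99.5%, had no testis to be set against. The other 4 regions had adjusted exact permutation p-values between 0.0849 and 0.966.

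The 5 CpGs higher in testis at 28 °C lay in 4 regions. The first, chr22:20736356, is among the split CpGs above, where a difference in DNA sequence was not tested. At chr22:20736356 testes ran from 7.32% over 38.9% to 100% in 11 fish and ovaries from 0% over 14.7% to 26.1% in 8 fish. The difference was 27.4 percentage points (SE 10.8, exact permutation test, adjusted p = 0.0375), with 10 of 11 testes above the mean of the ovaries of their prefix. Within the prefix 128 testes averaged 75.8% (n = 6) and ovaries 14.2% (n = 2), and within the prefix 204 testes averaged 22.7% (n = 5) and ovaries 14.1% (n = 6). Of the 28 °C testes with the prefix 204 that read any CpG of chr22:20736356-20736681, only fish 2 lay outside the ovary range of the panel. This call was lost when any of 11 of the 19 fish was left out: fish 4, 11, 16 and 19 of the testes and 14 and 17 of the ovaries with the prefix 128, and fish 9 and 14 of the testes and 6, 19 and 20 of the ovaries with the prefix 204, with differences of 19.9 to 31.3 over all fish left out.

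At chr15:27992212 levels in testis at 28 °C ran from 87.2% over 99.7% to 100% in 8 fish, and in ovary from 46.9% over 74.4% to 100% in 10 fish. All 8 testes were above the mean of the ovaries of their prefix, and the difference was 21.8 percentage points (SE 6.98, exact permutation test, adjusted p = 0.0211). The CpG at chr24:6980772 had 95.8% ± 5.23 in testis and 82.3% ± 12.6 in ovary (SD, n = 10 and 13), a difference of 13.6 (SE 4.07, exact permutation test, adjusted p = 0.0142) with all 10 testes above the mean of the ovaries of their prefix. Near it, chr24:6980755 had 94.5% ± 5.48 in testis and 83.0% ± 12.1 in ovary (SD, n = 10 and 13), a difference of 11.5 (SE 4.26, exact permutation test, adjusted p = 0.0403). That call was lost when any of 15 of the 23 fish was left out, namely fish 1, 2, 4, 5, 11 and 19 of the testes and 3, 8, 12 and 15 of the ovaries with the prefix 128, and fish 0, 7 and 9 of the testes and 11 and 16 of the ovaries with the prefix 204, with differences of 9.38 to 13. At chr24:32502991 all 5 testes with the prefix 128 had 100% and the 5 ovaries with that prefix 80% to 99%, so the groups did not overlap (difference 9.17, SE 3.47, exact permutation test, adjusted p = 0.0311). Leaving out any of these 10 fish left fewer than 5 on a side, so this call has no such check, and the same holds for the region.

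The count of 5 CpGs at 28 °C was lower without single fish. It was 2 without fish 4 or fish 19 of the testes with the prefix 128, and 3 without fish 1, 5 or 11 of those testes, fish 12, 14, 15 or 17 of the ovaries with the prefix 128, or fish 9 of the testes with the prefix 204. Without the testes inside the ovary range, 2 regions of 5 tested and 3 CpGs of 35 tested passed. The shares over all sites given above, 50% of regions and 28.5% of CpGs, are for all fish of the comparison and not for this smaller set. Fewer sites had enough fish without these testes, so these counts cannot be set against the main ones.

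At 36 °C no few-fish region and no few-fish CpG had 5 fish on both sides within a prefix, so testis and ovary were not compared there, while 75% of panel regions and 34.2% of panel CpGs tested passed.

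Pooling both temperatures, with the prefix as stratum, opened 28 regions and 133 CpGs to the comparison of testis and ovary. This comparison was added after the coverage of the regions was seen, and it shares the 28 °C fish with the one above. Temperature was not a stratum, so tissue labels were permuted across temperatures. All ovaries with the prefix 128 came from 28 °C, whereas testes with that prefix came from both temperatures. The part of temperature in these differences was not tested. Methylation was higher in testis at 4 of the 28 regions and at 13 of the 133 CpGs and lower at none, where 40.8% of all regions and 29.3% of all CpGs tested passed. The adjustment took in the panel, where 16 of 21 regions passed, so the few-fish calls depended on the panel as well. At an unadjusted p of 0.05 or below, 7 few-fish regions and 27 few-fish CpGs passed. The difference was positive at 21 of the 28 regions and negative at 6, with a median of 2.95 percentage points, against 3.02 over all 49 regions tested. Without the 12 testes inside the ovary range, 5 regions of 16 tested and 13 CpGs of 86 tested passed. The shares of 40.8% and 29.3% are for all fish and not for this smaller set. Fewer sites had enough fish without these testes, so these counts cannot be set against the main ones.

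Of the 4 regions that passed, the one with the largest difference rested on single fish. At chr2:22670942-22670983 (2 CpGs) levels in testis ran from 69.0% over 96.9% to 100% in 8 fish, and in ovary from 50% over 84.1% to 100% in 9 fish. All 8 testes were above the mean of the ovaries of their prefix, and the difference was 17.6 percentage points (SE 5.83, exact permutation test, adjusted p = 0.0297). The adjusted exact permutation p was 0.114 without the only ovary with the prefix 204 (36 °C, fish 16, difference 12.4), 0.0544 without testis fish 4 (28 °C, prefix 128, difference 17.1), 0.0577 without testis fish 18 and 0.0584 without testis fish 8 (both 36 °C, prefix 204, differences 16.2 and 16.3).

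At chr15:27992143-27992212 (4 CpGs) testes ran from 28.5% over 72.1% to 75% in 16 fish and ovaries from 27.9% over 50.9% to 72.1% in 13 fish. The means were 67.5% ± 12.1 in testis and 50.8% ± 12.6 in ovary (SD, n = 16 and 13), with 15 of 16 testes above the mean of the ovaries of their prefix. The difference was 16.1 (SE 4.68, exact permutation test, adjusted p = 0.0054). Within the prefix 128 testes averaged 63.7% and ovaries 50% (n = 8 each), and within the prefix 204 testes averaged 71.4% and ovaries 52.0% (n = 8 and 5). The lowest testis, fish 2 with the prefix 128 at 28 °C, had 28.5%. The CpG at 27992143 of this region was near 0% throughout, at 0.0755% on average. In a fish that read all 4 CpGs, a region level near 75% thus means that the 3 other CpGs were near full methylation.

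The region next to the panel, chr22:20736356-20736681 (8 CpGs), had 29.0% ± 14.4 in testis and 14.9% ± 7.21 in ovary (SD, n = 11 and 13). The difference was 13.2 (SE 4.66, exact permutation test, adjusted p = 0.0196), with 10 of 11 testes above the mean of the ovaries of their prefix. Only 1 of these testes was from 36 °C. All but fish 18 with the prefix 128 and fish 2 with the prefix 204, both at 28 °C, lay inside the ovary range of the panel. Without the testes inside that range, fewer than 5 remained and the region was not tested. At chr24:6980565-6980772 (11 CpGs) testes had 79.7% ± 4.44 and ovaries 74.1% ± 5.13 (SD, n = 20 and 16), a difference of 5.87 (SE 1.44, exact permutation test, adjusted p = 0.00247) with 17 of 20 testes above the mean of the ovaries of their prefix. Within the prefix 128 testes averaged 82.9% and ovaries 73.3% (n = 9 each), and within the prefix 204 testes averaged 77.0% and ovaries 75.1% (n = 11 and 7). This region level again includes the CpG where fish differed in steps, and its part in the difference was not tested.

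**Figure D4:**
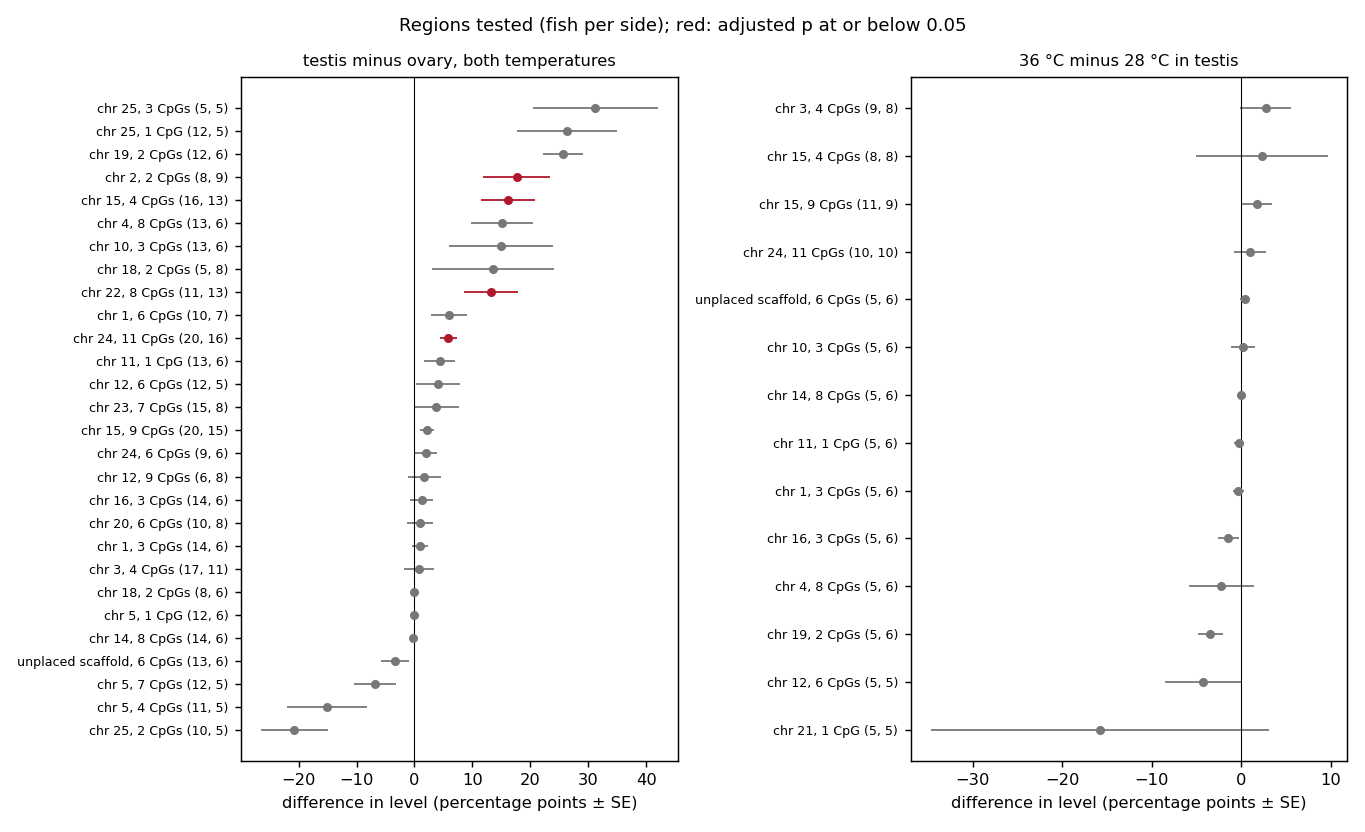
Difference in methylation level in percentage points with its SE (x axis) for each few-fish region tested (y axis, with its CpGs and the fish on each side), for testis minus ovary over both temperatures (left, 28 regions) and for 36 °C minus 28 °C in testis (right, 14 regions); red marks an adjusted p at or below 0.05. The 4 red regions at the left are all higher in testis, with differences of 5.87 to 17.6, and none is red at the right.

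The 13 CpGs higher in testis over both temperatures lay in 7 regions, with 4 in chr24:6980565-6980772 and 4 in chr22:20736356-20736681. For 2 of those on chromosome 22, 100000 resamples took the place of the exact test. The largest difference was at chr4:9915370, where testes ran from 60% over 98.4% to 100% in 13 fish and ovaries from 2.27% over 30.7% to 67.7% in 6 fish. It came to 34.8 percentage points (SE 8.06, exact permutation test, adjusted p = 0.0156). All 13 testes were above the mean of the ovaries of their prefix: 95.3% in testis and 67.7% in ovary within the prefix 128 (n = 11 and 1), and 64.9% in testis and 25.4% in ovary within the prefix 204 (n = 2 and 5).

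A pair of CpGs in the region next to the panel followed. Both are among the split CpGs above, where a difference in DNA sequence between fish was not tested. At chr22:20736365 testes averaged 61.1% ± 36.0 and ovaries 13.8% ± 10.6 (SD, n = 18 and 13), with a difference of 28.5 (SE 9.11, exact permutation test, adjusted p = 0.00377). At chr22:20736356 testes averaged 64.5% ± 37 and ovaries 13.7% ± 8.97 (SD, n = 18 and 13), also with a difference of 28.5 (SE 7.71, exact permutation test, adjusted p = 0.00432). In both, 17 of 18 testes were above the mean of the ovaries of their prefix. The prefixes stood far apart in testis: at chr22:20736356 the 12 testes with the prefix 128 averaged 85.1% and the 6 with the prefix 204 23.4%, whereas the 2 ovaries with the prefix 128 averaged 14.2% and the 11 with the prefix 204 13.6%. Among testes with the prefix 204 that read any CpG of this region, only fish 2 at 28 °C and fish 18 at 36 °C lay outside the ovary range of the panel. Prefix and a possible wrong tissue label can therefore not be told apart here. At chr15:27992212 testes averaged 96.1% ± 4.98 and ovaries 72.5% ± 25.7 (SD, n = 16 and 13), and all 16 testes were above the mean of the ovaries of their prefix. At chr24:6980772 testes averaged 95.7% ± 7.43 and ovaries 79.8% ± 16.2 (SD, n = 20 and 16), with 19 of 20 testes above that mean.

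In the second coverage set, tissue and prefix could often not be told apart. Those of its regions with enough fish are among the 28 tested over both temperatures, and none of them is among the 4 that passed. Levels of testes with the prefix 128 and of ovaries are set side by side here as a description, across prefixes and without a test. Testes with the prefix 128 and all ovaries were each read in at least 3 fish at 42 of its 50 regions. These testes averaged higher at 32 of the 42 regions and lower at 10, with a median gap of 3.42 percentage points, and the gap was within 5 points at 20 regions. It was above 25 points at 7 regions and below −25 at 2. The regions that follow were chosen after their values were seen. At chr4:9915227-9915515 (8 CpGs) the 11 testes with the prefix 128 had 75% ± 5.81 (SD), the 2 testes with the prefix 204 had 20% and 35%, and the 6 ovaries lay between 20% and 47.1%. Stratified by prefix, the difference between testis and ovary in this region was 15.1 percentage points (SE 5.38, exact permutation test, adjusted p = 0.0930) and did not pass. The region holds chr4:9915276, 1 of the 8 split CpGs, with 5 fish below 10% and 8 above 90% of 19. Whether fish differ in DNA sequence there was not tested. At chr1:52837720-52837833 (3 CpGs), read at a median of 2530.5 reads per CpG and fish, the 11 testes with the prefix 128 had 96.4% ± 0.973 (SD), the 3 testes with the prefix 204 had 70.3% ± 5.09 (SD), and the 6 ovaries 77.1% ± 3.27 (SD). Here the stratified difference between testis and ovary was 0.922 percentage points (SE 1.43, exact permutation test, adjusted p = 0.817). In the first of these regions both testes with the prefix 204 lay within the range of the ovaries, and in the second 1 lay within it and 2 below. These testes were fish 8 and 17, both inside the ovary range of the panel, and in the second region also fish 7, which was outside it at 41.8 on the panel scale. All 11 testes with the prefix 128 lay above the ovaries in both regions, and none of them was among the 12 testes inside the ovary range.

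Other regions of the second set showed a wide gap between testes with the prefix 128 and the few ovaries read. At chr12:24617527, a lone CpG with a median of 15 reads, 10 such testes had 96.0% ± 6.66 (SD) and 4 ovaries from 0% to 30.1%. Of these ovaries, 2 had the prefix 128 (0% and 30.1%) and 2 the prefix 204 (4.26% and 15.8%). At chr6:49974698-49975021 (7 CpGs) 10 such testes had 52.0% ± 4.06 (SD) and 4 ovaries, all with the prefix 204, from 15.7% to 36.7%. The direction was the opposite at chr7:22060584-22061048 (19 CpGs), where 7 such testes lay between 18.5% and 33.9% and 3 ovaries between 81.7% and 84.6%. Those 3 ovaries had the prefix 204. At the lone CpG chr11:39968061, 6 of 7 such testes had 0%, 2 testes with the prefix 204 had 93.5% and 94.9%, and 5 ovaries lay between 34.9% and 98.1%. These 5 ovaries also had the prefix 204. This lone CpG is among the split CpGs above, where a difference in DNA sequence between fish was not tested.

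**Figure D5:**
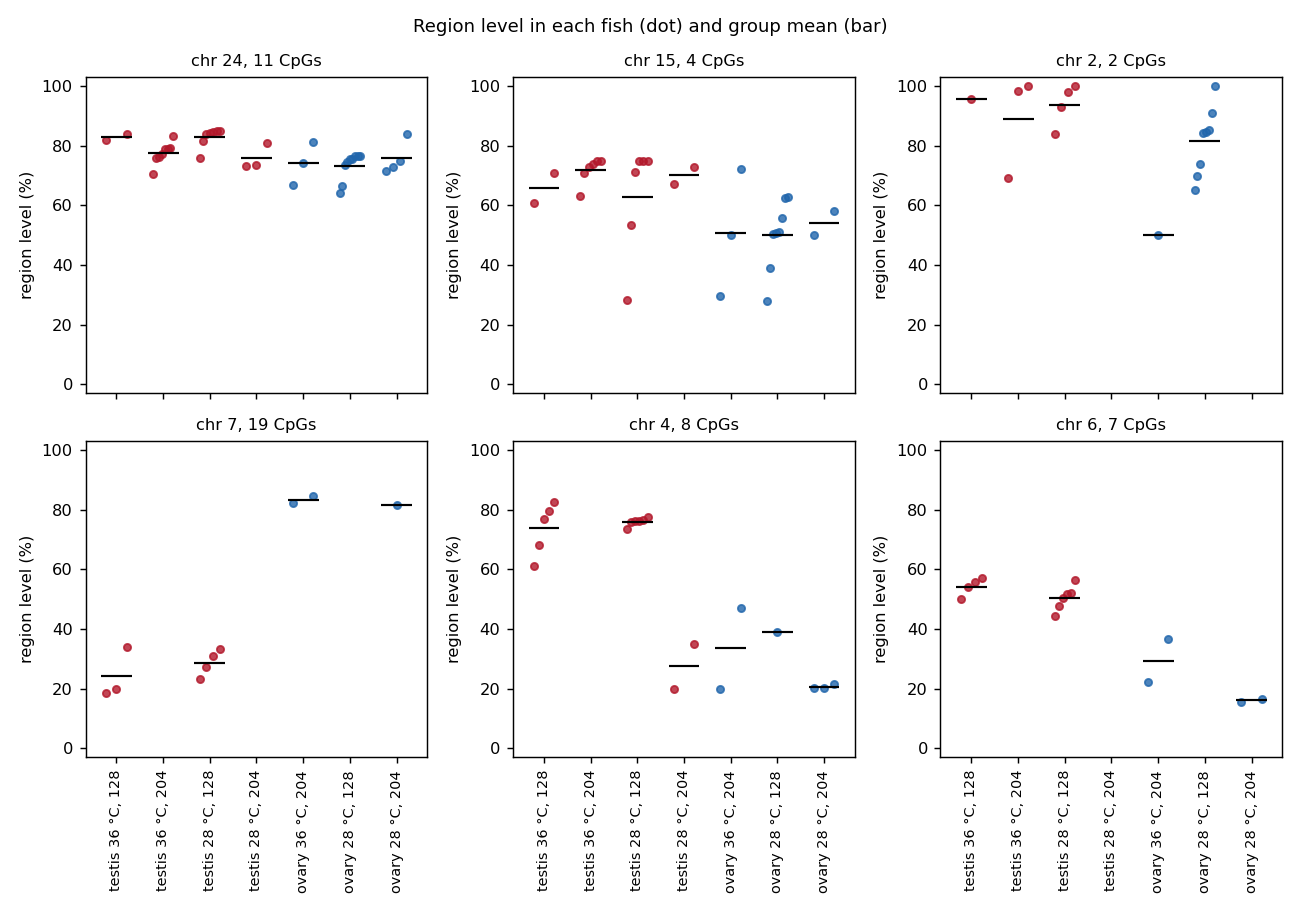
Methylation level in percent (y axis) of 6 few-fish regions in each fish that read them (dots, testis red, ovary blue) with the group mean (bars), by tissue, temperature and title prefix (x axis). In the top row testes and ovaries overlap, whereas in the bottom row on chromosome 7 the 7 testes lie between 18.5% and 33.9% and the 3 ovaries between 81.7% and 84.6%.

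In testis, 36 °C and 28 °C could be compared at 14 few-fish regions and 71 few-fish CpGs. None of the 14 regions passed in the exact permutation test and 1 did at an unadjusted p of 0.05 or below, whereas 31.4% of all regions tested passed. Of the 71 CpGs, 3 passed, 2 of them higher and 1 lower at 36 °C, where 23% of all CpGs tested passed, and 5 had an unadjusted p of 0.05 or below. The adjustment took in the panel, where 88 of 324 CpGs passed, so whether a few-fish CpG passed depended on the panel as well. With limma 0 of the 14 regions and 2 of the 71 CpGs passed. The median difference, 36 °C minus 28 °C, was −0.188 percentage points over the 14 few-fish regions and 0.529 over all 35 regions, with 6 positive and 8 negative. Without the 12 testes inside the ovary range, 0 of 11 few-fish regions and 0 of 52 few-fish CpGs passed, and so did 0 of all 365 CpGs tested.

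The smallest p among the regions belonged to chr19:38725684-38725717 (2 CpGs), with 95.3% ± 2.83 at 36 °C and 98.8% ± 1.64 at 28 °C (SD, n = 5 and 6) and a difference of −3.46 percentage points (SE 1.36, exact permutation test, adjusted p = 0.117). At chr16:48583928-48584132 (3 CpGs) testes had 62.9% ± 2.84 at 36 °C and 64.4% ± 0.697 at 28 °C (SD, n = 5 and 6), with a difference of −1.47 (SE 1.19, exact permutation test, adjusted p = 0.488). At chr15:6854585-6854705 (9 CpGs) they had 97.3% ± 3.19 at 36 °C and 95.9% ± 3.98 at 28 °C (SD, n = 11 and 9), with a difference of 1.72 (SE 1.65, exact permutation test, adjusted p = 0.625). The differences on chromosomes 16 and 15 were smaller than the SD between fish at 36 °C. The one on chromosome 19 was larger than the SD of either group, with an unadjusted p of 0.0433 in the exact permutation test, and did not pass after adjustment. At chr24:6980565-6980772, higher in testis than in ovary, testes had 78.6% ± 3.97 at 36 °C and 80.8% ± 4.81 at 28 °C (SD, n = 10 each), and the stratified difference was 0.961 (SE 1.82, exact permutation test, adjusted p = 0.807). It has the opposite sign of the difference in means because the prefixes are unevenly spread: within the prefix 128 testes averaged 82.9% at 36 °C and 82.9% at 28 °C (n = 2 and 7), and within the prefix 204 they averaged 77.5% at 36 °C and 75.9% at 28 °C (n = 8 and 3).

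The CpG lower at 36 °C was chr12:37123964, read in testes with the prefix 128 on both sides. The 5 testes at 36 °C had 0%, 1.88%, 1.99%, 2.20% and 2.59%, and the 5 testes at 28 °C had 5.70%, 7.02%, 19.1%, 23.0% and 25.8%. The groups did not overlap, and the difference was −14.4 percentage points (SE 4.16, exact permutation test, adjusted p = 0.0402). The 2 testes at 28 °C with the prefix 204 that read this CpG had 0% and did not enter. Leaving out any of the 10 fish left fewer than 5 on a side, so the call has no such check. Without the 12 testes inside the ovary range, the difference was the same, since none of them was among these 10 fish, but no CpG passed over the whole table and the adjusted exact permutation p was 0.202. The whole region, chr12:37123743-37124010 (6 CpGs), had 8.30% ± 9.0 at 36 °C and 12.6% ± 3.36 at 28 °C (SD, n = 5 each), a difference smaller than the SD at 36 °C (exact permutation test, adjusted p = 0.625).

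Both CpGs higher at 36 °C lay 24 bp apart in chr15:6854585-6854705. At chr15:6854594 testes at 36 °C ran from 97.6% over 100% to 100% in 11 fish, and testes at 28 °C from 15.4% over 100% to 100% in 9 fish, with a difference of 20.2 percentage points (SE 7.03, exact permutation test, adjusted p = 0.0465). A single fish carried it: without fish 8 of the 28 °C testes with the prefix 204, at 15.4%, the difference was 2.80 (exact permutation test, adjusted p = 0.177). The call was also lost without any of 11 others, namely fish 0 of the 28 °C testes with the prefix 204, fish 1 and 22 of the 28 °C testes and fish 1 of the 36 °C testes with the prefix 128, and fish 1, 2, 8, 11, 13, 18 and 19 of the 36 °C testes with the prefix 204, with differences of 19.9 to 25.5. At chr15:6854618 testes had 99.4% ± 0.736 at 36 °C and 97.0% ± 3.18 at 28 °C (SD, n = 11 and 9), a difference of 3.28 (SE 1.01, exact permutation test, adjusted p = 0.0299) with all 11 testes at 36 °C above the mean of the 28 °C testes of their prefix. It did not pass without fish 8 (difference 2.30) or fish 0 (3.20) of the 28 °C testes with the prefix 204, or without fish 19 (3.47) of the 36 °C testes with the prefix 128. Fish 0 and fish 8 both lay inside the ovary range of the panel, and without either of them, or without that fish 19, the count of CpGs past the threshold was 1 in place of 3.

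In ovary, only chr22:20736356-20736681 and 4 of its CpGs had 5 fish at each temperature, all with the prefix 204. The levels were 12.1% ± 8.77 at 36 °C and 15.6% ± 6.55 at 28 °C (SD, n = 5 and 6), with a difference of −3.49 percentage points (SE 4.61, exact permutation test, adjusted p = 0.645). The difference is within the spread between fish. None of the 4 CpGs passed in the exact permutation test, at an unadjusted p of 0.05 or with limma, and all 4 differences were negative, while 0% of all regions and 0% of all CpGs tested in ovary passed.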

How the data were processed

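Multiplex bisulfite sequencing measured CpG methylation in the gonads of 73 zebrafish. The values used are the deposited counts of methylated and unmethylated reads per CpG and strand in each fish. Per the submitters' processing notes, the authors used Trim Galore 0.4.5, FastQC 0.11.6, Bowtie2, Bismark 16.0 and the GRCz10 genome build. No source used here states alignment filters or how duplicates were treated, and reads that align at repeated or similar sequence could place a CpG wrongly.

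Levels are percentages of methylated reads, computed per CpG and fish from at least 10 reads. CpGs up to 200 bp apart formed a region, whose level was the mean over its CpGs in fish with a level at 50% or more of them. Groups came from the labels, the fish was the replicate, and a comparison needed at least 5 fish per side within prefixes that held both sides. Differences were tested two-sided by permuting labels within the title prefix, exactly up to 500000 splits and otherwise with 100000 resamples, and differences are stratified by prefix. P-values were adjusted by the Benjamini-Hochberg method over all CpGs, or all regions, tested in a comparison, panel included, at a threshold of 0.05. Whether a few-fish site passed thus depended also on the p-values of the panel. The code was checked on simulated data.

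The members and lists were chosen with earlier results of these data known. The text names the 8 regions with the most members (and those tied with the eighth), for each comparison the regions past the threshold (at most 10, by size, or the 3 with the smallest p where fewer than 3 passed), and the 5 CpGs with the largest difference among those past it; others are said to have been chosen after their values were seen. Fish numbers are shared across temperatures, but same-numbered fish did not consistently deviate together, so they were not paired in the main tests. Alternatives were minimums of 5 and 20 reads, other numbers of fish per side, other region gaps, pooled reads, no prefix, each prefix alone, a quasi-binomial model, limma, a block of fish number and leaving out each fish, with up to 20000 resamples. The comparison over both temperatures and the one without 12 testes were added after seeing the data. Tools were Python 3.11.15 with numpy 2.4.6, pandas 2.3.3, scipy 1.17.1, statsmodels 0.14.6 and matplotlib 3.10.9, and R 4.3.3 with limma 3.58.1. Intervals of counting error were not used, since fish were the replicates.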

Additional observations from a re-analysis of the deposited data

Results flagged for a closer look

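In 3 of 27 groups of 4 to 10 fish, taken over 14 regions, 1 fish lay far from the rest. Chance alone gives that in about 1 of 20 independent groups of normally distributed levels. These levels are bounded and the groups share fish, so that rate may not hold here. At chr24:6980565-6980772 fish 22 of the 28 °C testes with the prefix 128 had 76.0%, and the 6 others of its group 81.7% to 85.0%. At chr24:32502887-32502991 the same fish had 95.2% and the others 98.9% to 100% (n = 5 with it). This fish is among the 12 testes inside the ovary range of the panel. At chr15:27992143-27992212 fish 19 of the 36 °C testes with the prefix 204 had 63.2% and the others 70.7% to 75% (n = 6 with it). What sets these fish apart was not tested.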

How the results depend on the processing

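For testis against ovary at 28 °C, the 1 region past the threshold became 5 at a minimum of 5 reads, 3 with 4 fish per side, 2 within the prefix 128, 0 within the prefix 204, and 2 each with the quasi-binomial model, a gap of 100 bp, any CpG of the region or without the 12 testes. Leaving out each fish gave 1 to 2. Sites with fewer than 5 fish on a side within a prefix were not tested there, so counts within 1 prefix also fall for lack of fish. The counts without the 12 testes likewise come from fewer sites. With the prefix 204 alone, chr24:6980565-6980772 had 3 testes and 4 ovaries at 28 °C and was not tested. The 5 CpGs became 11 at 5 reads, 3 without the prefix, 0 within the prefix 204, 2 with the quasi-binomial model, 3 with limma and 3 without the 12 testes, and 2 to 7 without single fish. Over both temperatures the 4 regions became 7 at 5 reads, 8 without the prefix and 1 within the prefix 204, and the 13 CpGs became 7 at 20 reads, 27 without the prefix, 0 within the prefix 204, 8 with the quasi-binomial model and 11 to 16 without single fish. For temperature in testis, the count of regions went to 1 in place of 0 at 5 reads and with the quasi-binomial model. The 3 CpGs became 1 at 20 reads, 0 without the prefix, 0 within the prefix 128, 6 with the quasi-binomial model, 0 without the 12 testes and 1 to 3 without single fish. Within the prefix 128 only 3 testes at 36 °C had a level at chr15:6854585-6854705, so its 2 CpGs were not tested there. At a minimum of 20 reads, 201 CpGs had that depth in 10 to 36 fish. The direction turned for chr16:48583928-48584132 with a gap of 100 bp (1.35), for chr15:6854585-6854705 without 1 fish (−0.896, highest without another 3.92), both 36 °C minus 28 °C in testis, and for chr22:20736356-20736681 in ovary at 5 reads (3.61). Of the other values of counts, 96 stayed within 1.5 times, and of values of single regions or CpGs 277 kept direction and side of the threshold, 49 lost the call and 5 gained one. The 96 include counts of 0 that stayed 0 where few or no few-fish sites were tested, and these could hardly move. The causes were not tested.

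Over few-fish and panel CpGs together, same-numbered fish at 36 °C and 28 °C correlated at −0.613 to 0.461 in testis (10 pairs) and −0.304 to 0.127 in ovary (6 pairs). The correlation was above 0.1 in 5 of the testis pairs and 1 of the ovary pairs. Such mixed values do not settle whether the numbers pair the fish. With the block of fish number, 0 CpGs in testis passed in place of 3, and 0 regions in either tissue. At those 3 CpGs and at the ovary region, too few same-numbered pairs had levels for this test to reach the threshold. Its counts of 0 therefore decide nothing. Between tissues no paired analysis was possible because fish within a prefix and temperature shared no numbers.

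Depth and coverage limit these data: few-fish CpGs had a median of 56 reads per fish, counting only fish with at least 10 reads. At 44 of the 72 regions tissues were not compared, for want of 5 fish per tissue within prefixes that held both tissues. Some of the 44 had enough fish of each tissue, but mostly of different prefixes. For example, chr25:745708-745729 was read in 12 testes, 10 of them with the prefix 128, and 5 ovaries, all with the prefix 204.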
